A study of Homo sapiens with 12 samples.

Results

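The genes of cholesterol synthesis and of the SREBP2 program were followed through HaCaT, a spontaneously immortalized skin keratinocyte line, and TIGK, immortalized keratinocytes of human gingiva. The 31 genes were chosen by name, from 58735 genes in the deposited count table, and all 31 were found under 1 identifier each. They comprise 7 genes of the mevalonate steps, 11 of the sterol branch, 5 regulators, 4 genes of uptake control, transport and storage, 2 efflux transporters and 2 genes of fatty acid synthesis. Polyadenylated RNA had been sequenced from 4 groups of 3 libraries each, untreated HaCaT, HaCaT after 5 mM H2O2 for 3 h, untreated TIGK and TIGK after the same exposure. Both lines were kept in the same keratinocyte medium and were confluent at treatment. Each tissue was represented by a single immortalized line, so differences between the tissues and differences between the lines cannot be told apart. No label states that the libraries of a group came from separate cultures, so the p-values measure the spread between libraries, which may be technical.

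Cells make cholesterol from acetyl-CoA, first through the mevalonate steps to farnesyl diphosphate and then through squalene, lanosterol and a series of demethylations, reductions and isomerizations. The transcription factor SREBP2, encoded by SREBF2, is held in the endoplasmic reticulum by SCAP and the INSIG proteins when sterols are plentiful, and is cut and released to the nucleus when they are scarce, where it raises the genes of synthesis and uptake. Oxysterols act the opposite way through LXR receptors, which raise the efflux pumps ABCA1 and ABCG1. In keratinocytes the pathway matters because cholesterol is a main lipid of the skin barrier and a share of it is made in the cells themselves.

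Stretches upstream of 5 of the genes are printed because these genes carry the main patterns below. SREBF2 fell after H2O2 in both lines, INSIG1 and HMGCS1 rose in both, STARD4 moved in opposite directions in the 2 lines, and ABCA1 had the largest fall. The sequences are from RefSeq windows on GRCh38.p14 and run 5′ to 3′ on the strand of the gene, upstream of every annotated start considered. They cover chr22:41832879-41833078 on the plus strand for SREBF2, chr5:43313513-43313662 on the minus strand for HMGCS1, and chr7:155297628-155297775 on the plus strand for INSIG1. For STARD4 the stretch is chr5:111512591-111512785 and for ABCA1 it is chr9:104928238-104928405, both on the minus strand. Capitals mark matches to ATCACCCCAC (the sterol regulatory element of SREBF2), to CACNCCAC (its shortened core), to ATTGG (the inverted CCAAT box) and to CACGTG (an E-box), on either strand, and the SREBF2 element is the core TCACNCCAC with the base before it.
SREBF2: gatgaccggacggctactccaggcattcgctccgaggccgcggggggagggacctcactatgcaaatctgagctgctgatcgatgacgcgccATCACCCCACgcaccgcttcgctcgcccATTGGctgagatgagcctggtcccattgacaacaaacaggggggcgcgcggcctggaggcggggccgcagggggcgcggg
HMGCS1: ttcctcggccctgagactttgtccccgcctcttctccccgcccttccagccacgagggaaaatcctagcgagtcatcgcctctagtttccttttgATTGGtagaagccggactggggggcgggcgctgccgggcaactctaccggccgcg
INSIG1: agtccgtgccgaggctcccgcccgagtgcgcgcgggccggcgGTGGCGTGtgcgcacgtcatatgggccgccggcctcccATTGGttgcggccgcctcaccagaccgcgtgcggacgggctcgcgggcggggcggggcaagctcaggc
STARD4: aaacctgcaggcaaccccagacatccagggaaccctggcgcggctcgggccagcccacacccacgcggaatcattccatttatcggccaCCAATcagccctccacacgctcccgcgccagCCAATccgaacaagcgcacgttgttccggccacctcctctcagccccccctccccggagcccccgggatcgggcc
ABCA1: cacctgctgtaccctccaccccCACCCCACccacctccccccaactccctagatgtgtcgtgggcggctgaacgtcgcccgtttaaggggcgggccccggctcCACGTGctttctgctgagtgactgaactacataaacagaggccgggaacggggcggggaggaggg

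A RefSeq window of 300 bases, from 250 before to 50 after the start, was found for 26 of the 31 genes, and windows for 27305 starts in all were searched on both strands. The inverted CCAAT box ATTGG, the site of NF-Y, was present in 18 of the 26 windows (69.2%), against 35.7% of all windows. The longer element ATCACCCCAC was read from the SREBF2 window itself, from 134 to 125 bases before the start. Its presence there was thus fixed in advance, and it occurred in 0.0476% of all windows. The core TCACNCCAC, which overlaps it, was found in SREBF2 alone among the 26, and in 1.15% of all windows. The shortened core CACNCCAC, contained in both, was found in 5 of the 26 (19.2%), ABCA1, INSIG1, SC5D, SCD and SREBF2, against 5.74% of all windows. CACGTG was found in 5 (19.2%), ABCA1, INSIG1, LSS, SC5D and SCAP, against 7.43%. An exact form of the LXR element, AGGTCA repeated after a gap of 4 bases, was found in 0 of the 26 and in 0.0183% of all windows. So rare a string was likely to be absent from 26 windows, and sites that differ from it were not searched. Its absence thus does not show that a gene lacks an LXR element. A match of letters is a description of the window and not evidence of binding.

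The 12 libraries held 30426401 to 49034244 counts. Keratinocyte markers (KRT5, KRT14, TP63, ITGA6, ITGB4, DSG3 and SFN, 7 of 7 present in every group) summed to between 1111689 and 1371897 normalized counts in all libraries. Fibroblast markers summed to 311 to 418 in HaCaT and 799.8 to 938 in TIGK, with COL1A2 at 0 in all libraries. Leukocyte markers summed to at most 5.92. Counts on mitochondrial genes made up 6.10 to 6.26% of untreated HaCaT, 3.30 to 3.51% of treated HaCaT, 3.33 to 3.45% of untreated TIGK and 1.39 to 1.5% of treated TIGK libraries. The part of these differences in the results below was not tested. All 31 genes were among the 16618 tested with edgeR's quasi-likelihood test, and "rose" and "fell" are used for a Benjamini-Hochberg adjusted p under 0.01 over all genes tested. Normalized counts are counts at the mean library size after TMM scaling, and in bulk RNA a smaller number of expressing cells and less RNA per cell cannot be told apart.

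The genes together took 1.10 to 1.11% of all counts in untreated HaCaT, 1.09 to 1.18% in treated HaCaT, 0.630 to 0.665% in untreated TIGK and 0.595 to 0.603% in treated TIGK. In every group FASN and SCD held more of these counts than the 18 mevalonate and sterol branch genes together. In TIGK FASN and SCD summed to 148084 ± 4359 normalized counts before and 126450 ± 1275 after H2O2, and the 18 to 56631 ± 983 and 60616 ± 635 (SD, n = 3). In HaCaT the sums were 249768 ± 1122 and 233481 ± 17795, and for the 18 genes 115726 ± 2005 and 145894 ± 7489. Levels were compared as TPM, scaled to library total and to the length listed for each gene, which need not be that of the expressed transcript. SCD, the desaturase that makes oleate, had the highest level in every group, with 3428 TPM in untreated HaCaT and 2079 in untreated TIGK. In untreated cells it was followed by FASN, the fatty acid synthase, with 592 TPM in HaCaT and 521 in TIGK, and in HaCaT then by HMGCS1, which makes HMG-CoA, with 527 TPM. After H2O2 the order of these 2 genes in HaCaT was the other way round, with HMGCS1 at 665 ± 16 and FASN at 580 ± 87.5 TPM (SD, n = 3), a gap within the spread of FASN. In untreated TIGK the order below FASN was different, with DHCR7, the last reductase of the pathway, at 273 TPM and SQLE, the squalene epoxidase, at 207, ahead of HMGCS1 at 115. ABCA1 was lowest in all groups, at 1.86 TPM in untreated HaCaT, 0.55 in treated HaCaT, 3.77 in untreated TIGK and 1.79 in treated TIGK. CYP51A1, the lanosterol demethylase, stood low among the enzymes, at 13.95 TPM in untreated HaCaT and 8.51 in untreated TIGK. In GENCODE, 68.2% of its exon bases are shared with a second gene model on the same strand that lists a mean of 0 counts in these libraries, so its level is uncertain.

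**Figure D1:**
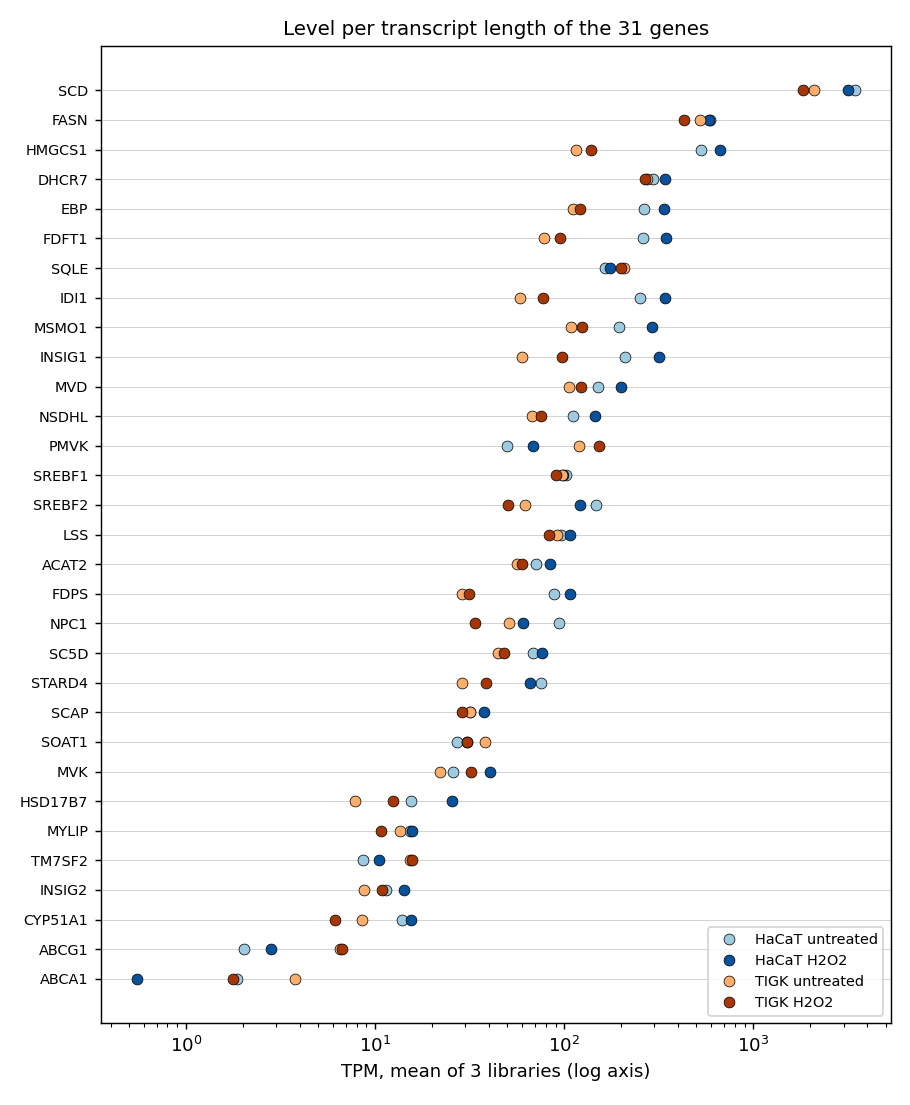
Mean TPM of the 31 genes in the 4 groups (log axis), ordered by their mean level. SCD lies highest, from 1825 to 3428 TPM, ABCA1 lowest, from 0.55 to 3.77 TPM, and most enzymes have the HaCaT points to the right of the TIGK points.

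The first question was how each line responded to H2O2. In TIGK 8 of the 31 genes rose and 6 fell, where 10.2% and 12.9% of all genes tested did, and the median log2 fold change was 0.08 against 0.01 over all genes tested. In HaCaT 13 rose and 4 fell, where 18.9% and 15.2% of all genes tested did, and the median was 0.25 against 0.04. Of the 31, 10 were called in the same direction in both lines, 7 of them up (MVK, HMGCS1, PMVK, MVD, IDI1, HSD17B7 and INSIG1) and 3 down (SREBF2, NPC1 and ABCA1). A single gene, STARD4, was called in opposite directions, with a fall in HaCaT that was not called under every alternative, and 11 genes were called in neither line. With an absolute log2 fold change over 1 required as well, ABCA1 alone was called in each line, where 3.74% of all genes tested in TIGK and 5.27% in HaCaT were.

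Of the 7 mevalonate genes, 5 rose in TIGK and the same 5 in HaCaT, where 10.2% and 18.9% of all genes tested rose. The other 2, ACAT2 and FDPS, were called in neither line, with values above 0 in both. Without a filter on low counts both were called in HaCaT (edgeR adjusted p = 0.00525 and 0.00153). FDPS was also called there with library totals alone (edgeR adjusted p = 0.00692). The 7 genes had a median log2 fold change of 0.26 in TIGK and of 0.42 in HaCaT. Their summed level went from 17949 ± 384 to 21489 ± 274 normalized counts in TIGK and from 53668 ± 1194 to 69491 ± 4452 in HaCaT (SD, n = 3).

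MVK, the mevalonate kinase, had 1334, 1421 and 1217 normalized counts in untreated and 1941, 1984 and 1818 in treated TIGK, and 1857, 1787 and 1602 in untreated and 2456, 2928 and 2806 in treated HaCaT. Every treated library lay above every untreated library of its line. It rose by 0.53 ± 0.0794 (log2 fold change with SE, edgeR adjusted p = 4.23e-05) in TIGK and by 0.64 ± 0.0781 (edgeR adjusted p = 3.30e-06) in HaCaT, the largest rise among the mevalonate genes in both. HMGCS1 on chromosome 5 (43289395 to 43313512) had 4806, 4906 and 5305 normalized counts in untreated and 6115, 6075 and 5765 in treated TIGK. In HaCaT it went from 24905, 25428 and 27296 to 31727, 31896 and 34191. The groups did not overlap in either line, and the log2 fold changes were 0.26 ± 0.0566 (edgeR adjusted p = 0.00164) and 0.33 ± 0.0556 (edgeR adjusted p = 9.51e-05).

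IDI1, the isomerase that makes dimethylallyl diphosphate, had 2494, 2296 and 2222 normalized counts in untreated and 3098, 3024 and 3085 in treated TIGK. In HaCaT it had 11378, 11287 and 11491 before and 14032, 15434 and 16822 after H2O2. Both lines thus had all treated libraries on the higher side, with log2 fold changes of 0.39 ± 0.0635 and 0.44 ± 0.0611. PMVK, the phosphomevalonate kinase, went from 1440, 1503 and 1333 to 1693, 1772 and 1938 in TIGK and from 672, 694 and 642 to 793, 976 and 990 in HaCaT. It was the mevalonate gene with more RNA in TIGK than in HaCaT, and its log2 fold changes were 0.34 ± 0.0844 and 0.46 ± 0.0892. MVD, the diphosphomevalonate decarboxylase, rose by 0.19 (edgeR adjusted p = 0.00973) and 0.42 (edgeR adjusted p = 7.05e-06). ACAT2, which joins acetyl-CoA units, and FDPS, the farnesyl diphosphate synthase, had log2 fold changes of 0.08 and 0.10 in TIGK and of 0.25 and 0.28 in HaCaT, without passing the test. On the opposite strand, a long noncoding RNA shares 37.7% of the exon bases of HMGCS1 and TCP1 shares 17.2% of those of ACAT2. RUSC1-AS1 likewise shares 18.6% of those of FDPS, IDI2-AS1 15% of those of IDI1 and MMAB 2.5% of those of MVK. Whether reads were counted by strand is not given in the sources used here.

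The sterol branch, from squalene to cholesterol, differed in how many of its genes passed the test. In TIGK 1 of the 11 rose and in HaCaT 6 did, where 10.2% and 18.9% of all genes tested rose. At an unadjusted p under 0.05 of edgeR, 3 were higher in TIGK and 9 in HaCaT, and DESeq2 called 2 up in TIGK, HSD17B7 and FDFT1, and 6 in HaCaT. With other processing of all 12 libraries the rises called numbered 1 to 3 in TIGK and 4 to 6 in HaCaT. By edgeR 0 fell in TIGK, where 2 were lower at an unadjusted p under 0.05 and DESeq2 called 1 of them, CYP51A1, down. In HaCaT all 11 log2 fold changes were above 0, from 0.08 to 0.72 with a median of 0.27, and in TIGK 7 of the 11 were, from -0.47 to 0.67 with a median of 0.10. Over all 16618 genes tested, 8831 lay above 0 in HaCaT and 8443 in TIGK. The summed level of the 11 went from 38681 ± 702 to 39128 ± 385 normalized counts in TIGK and from 62058 ± 811 to 76403 ± 3278 in HaCaT (SD, n = 3). Such sums follow the genes with most counts. In untreated TIGK these were DHCR7, SQLE and LSS (means 10490, 8242 and 6140), each with a log2 fold change below 0 and no call. In HaCaT FDFT1 had the most, with means of 14195 before and 18731 after H2O2. Shares over all genes are not given for the unadjusted p, DESeq2 or the other processing, so those counts have no base here. A count that differs between the lines is not a test of the difference, which is given further on.

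HSD17B7, the sterol ketone reductase of the demethylation complex, was the gene that rose in both lines. It had 320, 365 and 349 normalized counts in untreated and 547, 504 and 589 in treated TIGK, and 779, 712 and 827 in untreated and 1156, 1264 and 1410 in treated HaCaT. The treated libraries lay above the untreated in each line, with log2 fold changes of 0.67 ± 0.101 (edgeR adjusted p = 5.12e-05) and 0.72 ± 0.0941 (edgeR adjusted p = 6.76e-06). MSMO1, the sterol methyl oxidase of the same complex, had 3114, 3028 and 2564 normalized counts in untreated and 3301, 3342 and 3186 in treated TIGK. In HaCaT it had 6051, 5817 and 5878 before and 8572, 8827 and 8974 after H2O2. The gap between treated and untreated was wide in HaCaT and narrow in TIGK, with log2 fold changes of 0.57 ± 0.0614 (edgeR adjusted p = 7.87e-07) and 0.18 ± 0.0628 (edgeR adjusted p = 0.0369).

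FDFT1, the squalene synthase, had 3885, 4019 and 3430 normalized counts in untreated and 4418, 4780 and 4459 in treated TIGK. In HaCaT it went from 14292, 14397 and 13895 to 16590, 17962 and 21639, with treated replicate 3 the highest. The groups did not overlap in either line, yet the call was made in HaCaT (0.40 ± 0.0783, edgeR adjusted p = 0.000422) and missed in TIGK (0.27 ± 0.0801, edgeR adjusted p = 0.0136), where DESeq2 made it (adjusted p = 0.00516). NSDHL, the decarboxylating sterol dehydrogenase, EBP, the sterol isomerase, and DHCR7 also rose in HaCaT (log2 fold changes 0.39, 0.34 and 0.22), although the treated and untreated libraries of DHCR7 overlapped. In TIGK these were 0.15, 0.11 and -0.05. In GENCODE, EBP shares 36.4% of its exon bases with a same-strand protein-coding gene model that is absent from the count table. LSS, the lanosterol synthase, had -0.15 in TIGK and 0.17 in HaCaT, and CYP51A1 had -0.47 and 0.15, each without a call. SQLE, at -0.07 and 0.08, TM7SF2, a sterol reductase, at 0.02 and 0.27, and SC5D, the sterol desaturase, at 0.10 and 0.14, were likewise not called.

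**Figure D2:**
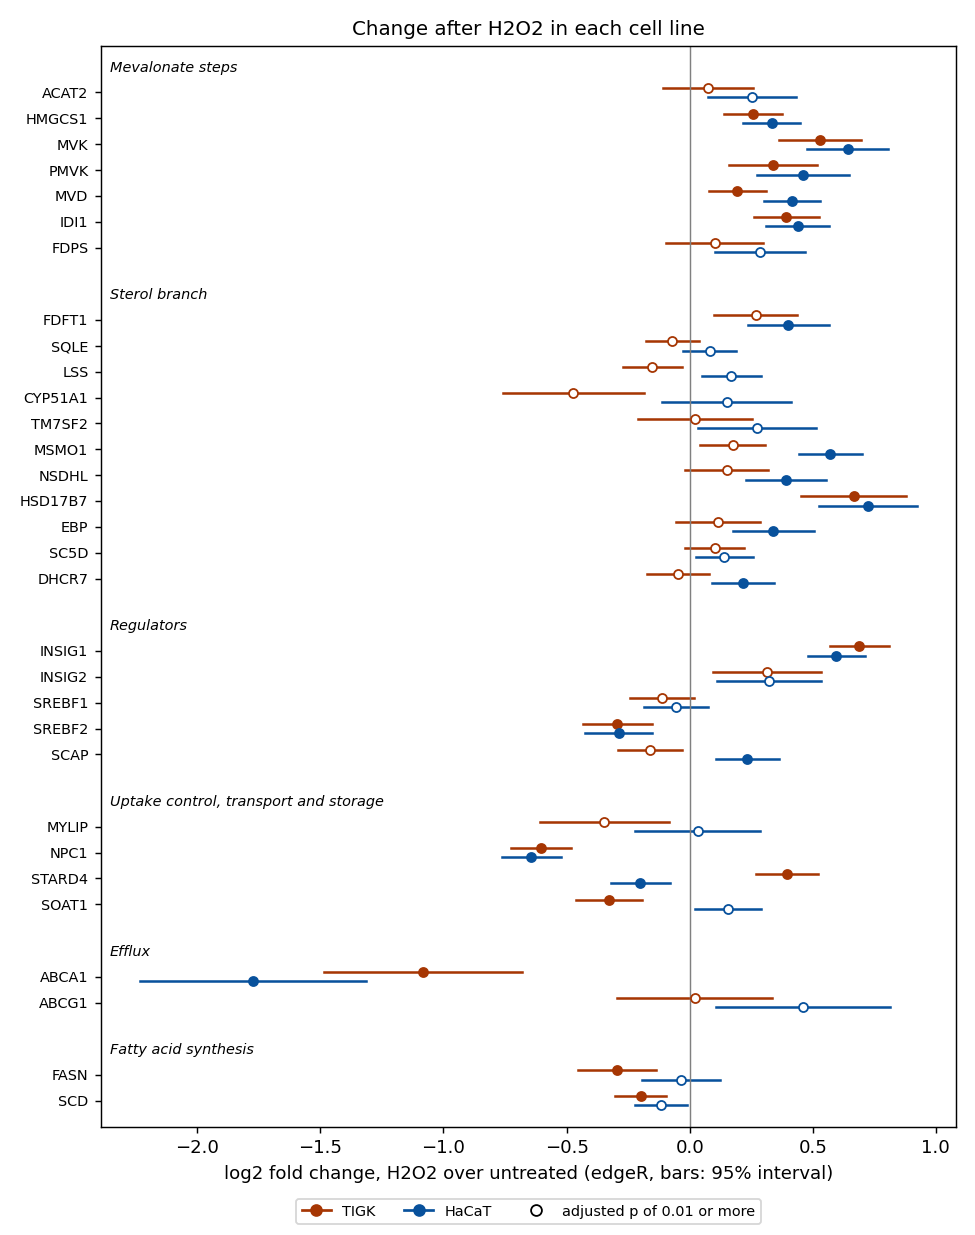
Log2 fold change of H2O2 over untreated for the 31 genes in TIGK and HaCaT, grouped by role. Points are edgeR estimates, bars are 95% intervals, and open points have an adjusted p of 0.01 or more. Mevalonate genes lie right of 0 in both lines, and ABCA1 lies farthest left, at -1.08 in TIGK and -1.77 in HaCaT.

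Among the regulators, INSIG1 rose and SREBF2 fell in both lines. INSIG1 (chromosome 7, 155297776 to 155310235), a sterol-sensitive anchor of SCAP and itself a target of SREBP, had 2088, 2005 and 1955 normalized counts in untreated and 3428, 3223 and 3108 in treated TIGK. In HaCaT it went from 7759, 8273 and 8003 to 11517, 12748 and 12073. Treated and untreated libraries were far apart in both lines, with log2 fold changes of 0.69 ± 0.0572 (edgeR adjusted p = 3.31e-08) and 0.60 ± 0.055 (edgeR adjusted p = 1.10e-07), or 1.61-fold and 1.51-fold. INSIG2, the second anchor, had 352, 309 and 294 normalized counts in untreated and 411, 383 and 395 in treated TIGK, and 459, 504 and 445 in untreated and 625, 563 and 571 in treated HaCaT. Its groups did not overlap, but its log2 fold changes of 0.31 ± 0.104 (edgeR adjusted p = 0.0246) and 0.32 ± 0.101 (edgeR adjusted p = 0.0134) missed the limit in both lines. DESeq2 called the rise of INSIG2 in HaCaT (adjusted p = 0.00871).

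SREBF2 (chromosome 22, 41833079 to 41907308) had 4139, 4191 and 4604 normalized counts in untreated and 3636, 3401 and 3514 in treated TIGK, and 11202, 11513 and 12068 in untreated and 9568, 10372 and 8550 in treated HaCaT. All treated libraries were lower than all untreated libraries of the line. It fell by 0.29 on the log2 scale in both, with a SE of 0.0665 (edgeR adjusted p = 0.00205) in TIGK and of 0.0651 (edgeR adjusted p = 0.00143) in HaCaT. SREBF1, which encodes the SREBP of fatty acid synthesis, had 6858, 7179 and 7627 normalized counts in untreated and 6580, 6561 and 6906 in treated TIGK. In HaCaT it had 8727, 8622 and 8368 before and 8164, 9038 and 7547 after H2O2. The groups overlapped in both lines, and neither log2 fold change (-0.11 and -0.06) was called.

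SCAP, the escort of SREBP, had 1900, 1914 and 1865 normalized counts in untreated and 1709, 1683 and 1691 in treated TIGK. In HaCaT it had 2169, 2191 and 2057 before and 2478, 2716 and 2351 after H2O2. The treated libraries lay lower in TIGK and higher in HaCaT, with log2 fold changes of -0.16 ± 0.0615 (edgeR adjusted p = 0.0497) and 0.23 ± 0.0608 (edgeR adjusted p = 0.0041). Per listed gene length, the ratio of INSIG1 to INSIG2 RNA was 6.88 ± 0.409 in untreated and 8.89 ± 0.326 in treated TIGK, against 18.5 ± 0.863 and 22.4 ± 2.31 in HaCaT (SD, n = 3). The ratio of SREBF2 to SREBF1 was 0.634 ± 0.0121 and 0.56 ± 0.0244 in TIGK and 1.44 ± 0.0859 and 1.22 ± 0.0209 in HaCaT. SREBF2 was thus the more abundant of the pair per length in HaCaT and the less abundant in TIGK, before and after H2O2.

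Among the genes of uptake control, transport and storage, NPC1 fell in both lines. NPC1, which carries cholesterol out of the lysosome, had 4710, 4731 and 4812 normalized counts in untreated and 3153, 3280 and 2947 in treated TIGK. In HaCaT it went from 10415, 9738 and 9695 to 6693, 6484 and 5950. The groups were well separated, with log2 fold changes of -0.60 ± 0.0578 (edgeR adjusted p = 2.25e-07) and -0.64 ± 0.0568 (edgeR adjusted p = 6.79e-08), or 0.658 and 0.641 times the untreated level. RMC1 on the opposite strand shares 6.38% of its exon bases.

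STARD4, a soluble carrier of sterols and a target of SREBP2, had 1607, 1551 and 1417 normalized counts in untreated and 2053, 2011 and 1954 in treated TIGK. In HaCaT it had 4648, 4265 and 4582 before and 3877, 3982 and 3885 after H2O2. It rose in TIGK (0.39 ± 0.0597, edgeR adjusted p = 4.81e-05) and fell in HaCaT (-0.20 ± 0.0573, edgeR adjusted p = 0.00764), and in each line the groups did not overlap. SOAT1, which esterifies cholesterol for storage, had 2384, 2548 and 2445 normalized counts in untreated and 2089, 1942 and 1857 in treated TIGK. In HaCaT it had 1980, 1953 and 2043 before and 2386, 2155 and 2118 after H2O2. It fell in TIGK (-0.33 ± 0.0637, edgeR adjusted p = 0.000581), and in HaCaT its log2 fold change of 0.16 ± 0.0639 was not called. MYLIP, a ubiquitin ligase that sends lipoprotein receptors to degradation and is a target of LXR, had -0.35 in TIGK and 0.03 in HaCaT, without a call.

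ABCA1 (chromosome 9, 104781002 to 104928237), which loads cholesterol onto lipid-poor apolipoproteins, showed the largest change of the 31 genes in both lines. It had 350, 352 and 483 normalized counts in untreated and 179, 176 and 203 in treated TIGK, and 229, 164 and 270 in untreated and 86, 57 and 51 in treated HaCaT. The treated libraries lay below the untreated in both lines, although the untreated libraries were spread widely. The change on the log2 scale was -1.08 ± 0.191 (edgeR adjusted p = 0.000229), or 0.472 times, in TIGK and -1.77 ± 0.219 (edgeR adjusted p = 3.79e-06), or 0.292 times, in HaCaT. ABCG1, which exports cholesterol to HDL, had 398, 372 and 346 normalized counts in untreated and 312, 410 and 406 in treated TIGK, and 145, 143 and 102 in untreated and 206, 180 and 152 in treated HaCaT. Its groups overlapped in TIGK and lay narrowly apart in HaCaT, where the log2 fold change of 0.46 ± 0.168 (edgeR adjusted p = 0.0317) was not called. FASN and SCD both fell in TIGK, with log2 fold changes of -0.29 ± 0.0757 (edgeR adjusted p = 0.00523) and -0.20 ± 0.05 (edgeR adjusted p = 0.00444). In HaCaT the values were -0.03 and -0.12, without a call.

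**Figure D3:**
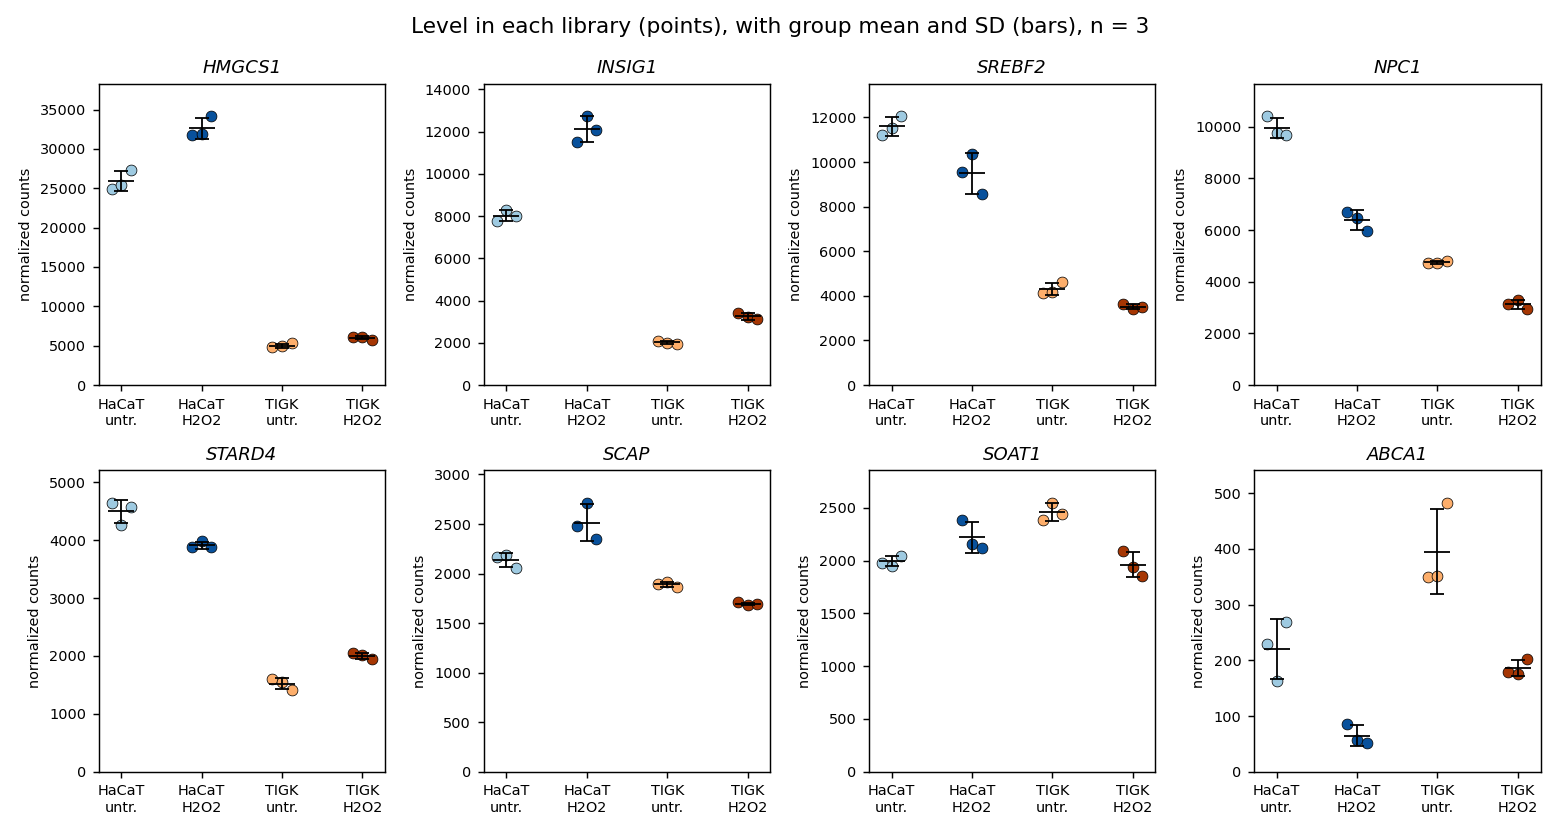
Normalized counts of 8 genes in each library (points), with group means and SD (bars, n = 3) and every axis starting at 0. STARD4 moves up in TIGK (1525 to 2006) and down in HaCaT (4498 to 3915), while NPC1, SREBF2 and ABCA1 lie lower after H2O2 in both lines.

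Several of the smaller changes depended on single libraries. In TIGK the count of falls went from 6 to 2 without treated replicate 3, and to 3 without treated replicate 2 or untreated replicate 3. The falls of FASN and SCD were lost without each of the 3 treated libraries and without untreated replicates 2 and 3, that of SCD also without HaCaT treated replicate 2, with adjusted p up to 0.0346 and 0.0453. The fall of SREBF2 was lost without untreated replicate 3 or treated replicates 2 or 3 (up to 0.0227), and that of SOAT1 without treated replicate 3 (0.011). The rise of MVD was lost without any of 8 libraries, all but HaCaT treated replicates 1 to 3 and TIGK untreated replicate 1 (up to 0.0334). The rise of PMVK was lost without untreated replicates 1 or 3 or treated replicate 3 (up to 0.0244), and that of HMGCS1 without untreated or treated replicate 1 (up to 0.0104). These are adjusted p-values of edgeR.

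In HaCaT the count of falls went from 4 to 2 without untreated replicate 3, where SREBF2 had an edgeR adjusted p of 0.0104. The fall of STARD4 was lost without untreated replicates 1 or 3, treated replicate 3 or TIGK treated replicate 1 (up to 0.042), and with scaling by library totals alone (0.0102), and the rise of EBP without treated replicate 2 (0.0187) and in the fit of the 2 HaCaT groups alone (0.0104). The rises of DHCR7 and SCAP were each lost without any of 7 libraries, with adjusted p up to 0.099 and 0.0734 (edgeR), both largest without treated replicate 2. These 7 were treated replicates 1 and 2, untreated replicate 1, untreated replicate 2 for DHCR7 or 3 for SCAP, TIGK untreated replicate 2 and TIGK treated replicates 2 and 3. Both rises were also lost in the fit of the 2 HaCaT groups alone (edgeR adjusted p = 0.0469 and 0.0377), that of DHCR7 with DESeq2 size factors (0.011) and that of SCAP without a filter on low counts (0.0249). INSIG1, MVK, HSD17B7, IDI1, NPC1 and ABCA1 kept their calls in both lines without any single library.

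The difference of the responses was tested as the interaction, TIGK minus HaCaT. It was called for 4 of the 31 genes, 1 above 0 (2.32% of all genes tested) and 3 below 0 (2.98%). None of the 31 had an absolute difference over 1, a rule that 1.14% of all genes tested passed. The value was below 0 for 27 of the 31 and above 0 for 4, where 7440 of all 16618 genes tested were above 0. Its median was -0.15 against -0.04 over all genes tested. STARD4 had a difference of 0.60 ± 0.0827 (SE, edgeR adjusted p = 0.000104), the call with opposite directions in the 2 lines, and it stayed past the limit without any single library. SOAT1 had -0.48 ± 0.0902 (edgeR adjusted p = 0.0017), MSMO1 -0.40 ± 0.0877 (edgeR adjusted p = 0.00605) and SCAP -0.39 ± 0.0865 (edgeR adjusted p = 0.00585).

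These last 3 calls were less steady. MSMO1 and SCAP were each lost without any of 10 of the 12 libraries, all but HaCaT treated replicate 3 and TIGK untreated replicate 3, with edgeR adjusted p up to 0.063 and 0.046. SOAT1 was lost without TIGK untreated replicate 2 or treated replicates 2 or 3 (edgeR adjusted p up to 0.019). The number of calls below 0 was 0 without any of those last 3 libraries, 1 without any of the 7 libraries HaCaT untreated replicates 1 to 3, HaCaT treated replicates 1 and 2, TIGK untreated replicate 1 and TIGK treated replicate 1, and 6 without HaCaT treated replicate 3. The difference of SCAP was also lost without a filter on low counts (edgeR adjusted p = 0.0294).

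For most of the pathway no difference of the responses was called. The 7 mevalonate genes had differences from -0.22 to -0.05, and the 11 of the sterol branch from -0.62 (CYP51A1, edgeR adjusted p = 0.0342) to -0.04. LSS missed the limit at -0.32 ± 0.0797 (edgeR adjusted p = 0.0128), although DESeq2 called it (-0.30, adjusted p = 0.00525). ABCA1, with the steeper fall in HaCaT, had a difference of 0.69 with a 95% interval from 0.08 to 1.30 (edgeR adjusted p = 0.137). The intervals were -0.07 to 0.26 for INSIG1, -0.20 to 0.19 for SREBF2 and -0.13 to 0.21 for NPC1.

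The second question was how the lines differed at each state, in comparisons that share libraries with the responses above and, in part, with each other through the common fit. In untreated cells 23 of the 31 genes were higher and 5 lower in HaCaT, where 29.1% and 30.8% of all genes tested were. Their median, on the log2 scale and as HaCaT over TIGK, was 0.68 against -0.01 over all genes tested. After H2O2 25 were higher and 4 lower, where 30.2% and 29.8% of all genes tested were, and the median was 0.84 against 0.02. The same 23 genes were higher in both states, and MYLIP and SCAP joined them after H2O2. The 4 genes lower in both states were PMVK, TM7SF2, ABCA1 and ABCG1, while SOAT1 was lower in untreated HaCaT and not called after H2O2. Shares over all genes are not given for calls made in both states. Past an absolute log2 fold change of 1, 11 genes were higher and 2 lower in untreated HaCaT, and 12 and 2 after H2O2, where 27% of all genes tested differed by this rule in each state.

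Of the mevalonate genes 6 were higher and 1 lower in HaCaT in both states, and of the sterol branch 9 were higher and 1 lower. Over all genes tested, 29.1% were higher and 30.8% lower in untreated HaCaT, and 30.2% and 29.8% after H2O2. HMGCS1 had the largest difference, 2.37 ± 0.0588 before and 2.45 ± 0.0588 after H2O2 (log2, SE), or 5.17-fold and 5.45-fold, followed by IDI1 with 2.28 ± 0.065 and 2.33 ± 0.0646. FDFT1, at the entry of the sterol branch, had 1.91 ± 0.0817 and 2.04 ± 0.0817, and FDPS 1.78 and 1.96. The libraries of these genes listed above showed no overlap of the lines, with the lowest HaCaT value of HMGCS1 at 24905 and the highest TIGK value at 6115 normalized counts. SQLE, the epoxidase often counted as a control point of the pathway, was the enzyme with no call in either state, at -0.16 ± 0.0518 (edgeR adjusted p = 0.0118) and -0.01 ± 0.0518 (edgeR adjusted p = 0.935). DESeq2, other scalings and the fit of 2 groups alone called it lower in untreated HaCaT, with adjusted p from 0.000759 to 0.00806. Its libraries held 7213 to 7597 normalized counts in untreated HaCaT, 8023 to 8523 in untreated TIGK, 7385 to 8048 in treated HaCaT and 7707 to 8085 in treated TIGK, apart before and overlapping after H2O2. PMVK ran against the other mevalonate genes at -1.09 ± 0.088 and -0.97 ± 0.0865, with every TIGK library above every HaCaT library.

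INSIG1 was 3.97-fold and SREBF2 2.69-fold higher in untreated HaCaT, with log2 fold changes of 1.99 ± 0.058 and 1.43 ± 0.0668. After H2O2 these were 1.90 ± 0.0571 and 1.43 ± 0.0671. INSIG2 was higher by 0.56 and 0.57, and SREBF1 by 0.25 and 0.30. SCAP was not called in untreated cells (0.18 ± 0.0611, edgeR adjusted p = 0.0158) and was higher in HaCaT after H2O2 (0.57 ± 0.0613, edgeR adjusted p = 1.08e-07). The call of SREBF1 in untreated cells was lost without TIGK untreated replicate 1 (edgeR adjusted p = 0.0119) and with library totals alone (0.0226), and that of TM7SF2 after H2O2 without HaCaT treated replicate 3 or TIGK treated replicate 2 (up to 0.0155).

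STARD4 was 2.95-fold higher in untreated and 1.95-fold higher in treated HaCaT, and NPC1 2.09-fold and 2.04-fold higher. The efflux pumps were the other way round. ABCG1 was at 0.35 times the TIGK level in untreated HaCaT (log2 fold change -1.51 ± 0.162, edgeR adjusted p = 9.43e-08) and at 0.474 times after H2O2 (-1.08 ± 0.159). ABCA1 was at 0.561 times before (-0.83 ± 0.189, edgeR adjusted p = 0.000671) and 0.348 times after H2O2 (-1.52 ± 0.221, edgeR adjusted p = 5.22e-06). FASN and SCD were higher in HaCaT in both states, by 0.36 and 0.90 before and 0.62 and 0.98 after H2O2 on the log2 scale.

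**Figure D4:**
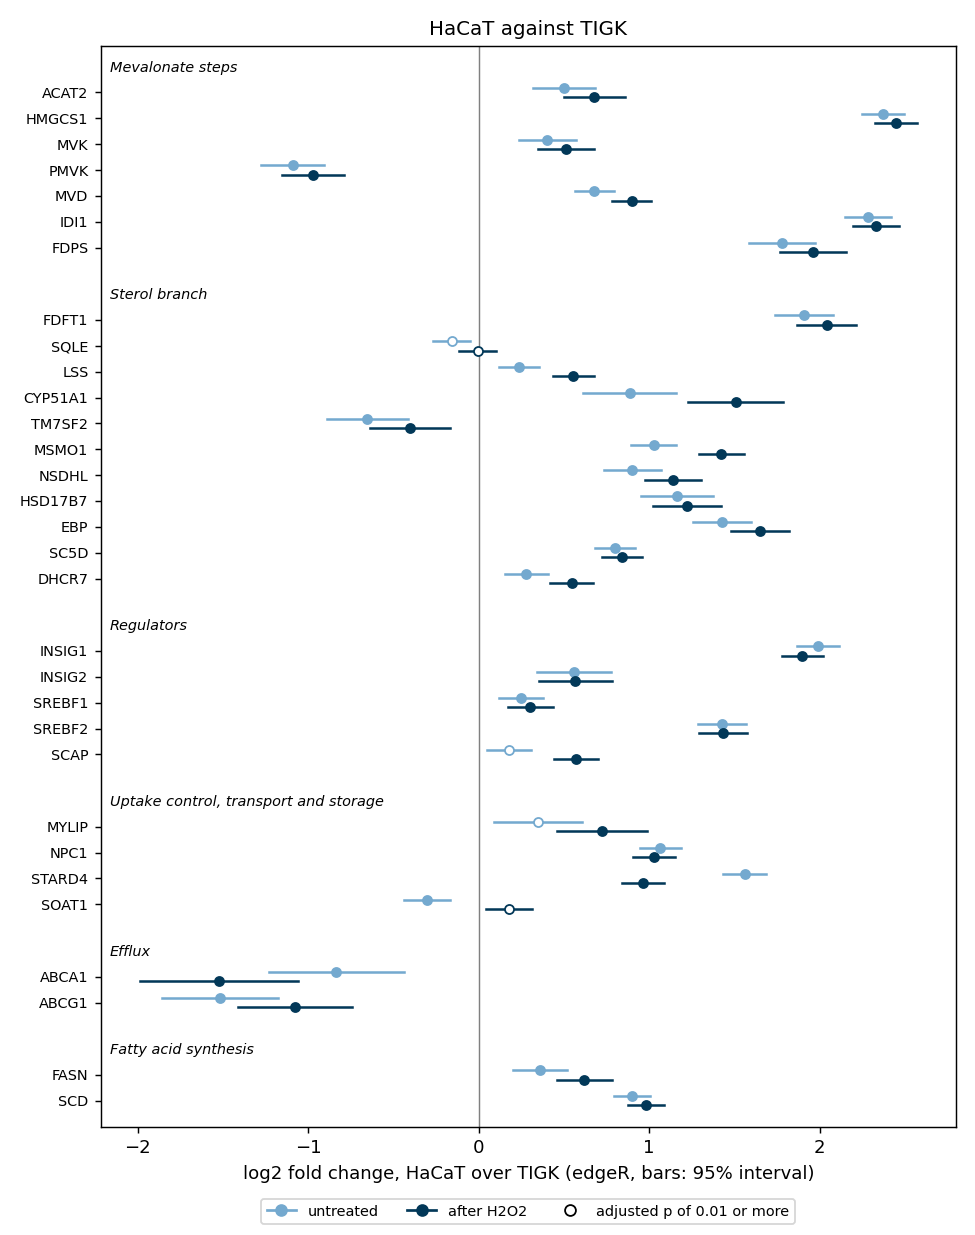
Log2 fold change of HaCaT over TIGK for the 31 genes in untreated cells and after H2O2, grouped by role. Points are edgeR estimates, bars are 95% intervals, and open points have an adjusted p of 0.01 or more. HMGCS1, IDI1, FDFT1, FDPS and INSIG1 lie near or beyond 1.78, and PMVK, TM7SF2, ABCA1 and ABCG1 lie left of 0 in both states.

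Beside the 31 genes, 5 lists with 62 other genes of the pathway were counted, and members of a list not given as risen or fallen passed the test in neither direction. Of all genes tested, 10.2% rose and 12.9% fell in TIGK, and 18.9% rose and 15.2% fell in HaCaT. The counts of a list are read against these shares, and none is given as particular to its list. Of 8 genes that process SREBP or degrade its regulators in the endoplasmic reticulum, 1 fell in TIGK and 2 rose in HaCaT, both near the shares over all genes. RNF145, a sterol-responsive ubiquitin ligase, fell in TIGK (-0.34 ± 0.0604) and rose in HaCaT (0.22 ± 0.0599), and ERLIN1 rose in HaCaT (0.18). MBTPS1, the protease that makes the first cut of SREBP, was lower in untreated HaCaT (-1.04 ± 0.0521).

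Of 13 genes of the isoprenoid branch, which draws on farnesyl diphosphate, 3 rose and 1 fell in TIGK, and 4 rose in HaCaT. FNTB, a subunit of farnesyltransferase, rose in both lines (0.65 ± 0.153 in TIGK and 0.61 ± 0.144 in HaCaT), as did PDSS2, which makes the ubiquinone side chain (0.64 ± 0.0838 and 0.53 ± 0.0833). In untreated cells 8 of the 13 were higher in HaCaT and 3 lower, where 29.1% and 30.8% of all genes tested were, PDSS1 (1.24) and GGPS1, the geranylgeranyl diphosphate synthase (0.85), among the higher. Of 16 genes of sterol uptake and trafficking, 3 fell in TIGK, and 5 rose and 1 fell in HaCaT, each within 2 genes of what those shares give for 16. The lipoprotein receptor LRP8 (-0.58) and the cholesteryl ester hydrolase NCEH1 (-0.37) fell in TIGK. TMEM97, which binds NPC1, rose in HaCaT (0.69 ± 0.0789), where the sterol carrier GRAMD1B fell (-2.54 ± 0.554) from 24.7 to 34.4 normalized counts in the untreated to 2.23 to 7.00 in the treated libraries. In untreated cells VLDLR was lower (-3.87 ± 0.334) and the lysosomal carrier NPC2 higher (1.44 ± 0.0839) in HaCaT.

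Of 8 tested genes of oxysterol sensing, 1 rose in TIGK and 4 rose in HaCaT. NR1H3, which encodes LXR alpha, rose in HaCaT (0.75 ± 0.117), as did SMPDL3A (0.74 ± 0.152), and RXRB, a partner of LXR, rose in TIGK (0.39 ± 0.0714). CH25H and CYP7B1, which make and clear oxysterols, were nearly absent from untreated HaCaT, with 0 to 2 and 1 to 4 raw counts a library, against 37 to 51 and 251 to 330 in untreated TIGK. Of 15 tested genes of fatty acid synthesis, 2 rose in TIGK, and 5 rose and 2 fell in HaCaT, of which the 2 rises and the 2 falls are near the shares over all genes. ACSS2, which makes acetyl-CoA from acetate, rose in both lines (0.33 and 0.39) and was higher in untreated HaCaT (1.30), ACLY rose in HaCaT (0.44) and ACSL1 in TIGK (0.21). LPIN1 was higher in untreated HaCaT (1.82).

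The genes that fell included the longest of the 31. ABCA1 spans 147236 bases of the genome, NPC1 80715 and SREBF2 74230, all of which fell in both lines. SOAT1, which fell in TIGK alone, spans 64967. FASN, SCD and STARD4, which also fell in 1 line each, span 20000, 17711 and 16558. INSIG1, which rose, spans 12460 and IDI1 10019. Across the 31 genes, genomic span and log2 fold change had a Spearman correlation of -0.48 in TIGK and of -0.33 in HaCaT. Across all 16618 genes tested it was -0.01 and -0.09. These are descriptions across genes, which share the same libraries and are not independent replicates. ABCG1 (97556 bases) and SCAP (63433) are likewise long and did not fall in either line. The part of gene length in the changes was not tested.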

How the data were processed

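Polyadenylated RNA of HaCaT and TIGK, untreated or exposed to H2O2, was measured in 12 libraries. The authors deposited raw read counts per gene, without normalization, for 58735 genes of GRCh38. The submitters' processing notes name HISAT2 (2.0.0 and 2.0.5), StringTie 1.3.3b, featureCounts 1.5.0-p3 and DESeq2. The annotation release, the handling of multi-mapping and ambiguous reads and whether reads were counted by strand are not given in the sources used here. Deposited fold changes and p-values of the authors' own DESeq2 comparisons were not used. The table held 0 rows without a gene identifier.

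The filter kept genes whose raw counts averaged 10 or more. edgeR 4.0.16 (R 4.3.3) scaled the 12 libraries by TMM (factors 0.962 to 1.04) and fitted its quasi-likelihood model to them jointly, with a mean for each of the 4 groups (common dispersion 0.0073). Standard errors follow from the F statistic, adjusted p-values are those of Benjamini and Hochberg over the 16618 genes tested, and the limit was 0.01. Intervals are at 95%. DESeq2 1.42.0 and other scalings, filters and limits served as alternatives. The fits were also run on simulated data with changes in treated TIGK alone. These were larger than most responses reported here, so that run does not show how well small changes are found. TPM values used the gene lengths of the deposited table. Pooled over the genes tested, replicates differed by more than counting noise (chi-square per degree of freedom 4.45 to 28.2). In treated HaCaT the pairs with replicate 3 had 28.2 and 18.9, against 9.42 for replicates 1 and 2. In untreated TIGK the pairs with replicate 3 had 15.3 and 11.9, against 5.40 for replicates 1 and 2. These pooled values say little of genes with low counts. For these, such as ABCA1 with 48 to 77 raw counts in treated HaCaT libraries, depth can limit precision as well.

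Groups came from the labels. In the treated libraries the labels' formula of the added compound changes with the replicate number, while their treatment protocol names H2O2 for all of them. The 31 genes and the other gene lists were written with earlier results of these data known. Values in every library are given for the regulators and efflux genes and for the 3 members with the largest rise and the largest fall past the limit in each comparison. Of each other list, the 2 tested genes with the largest change past the limit in the responses and in untreated cells were named. The values of 1 gene under this rule are not reported here. Markers, exon overlaps and promoter motifs were computed from GENCODE v44 and RefSeq windows on GRCh38, and Python 3.11.15 with matplotlib 3.10.9 drew the figures.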

Additional observations from a re-analysis of the deposited data

Results flagged for a closer look

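For 4 genes the response to H2O2 differed between TIGK and HaCaT by the test of the difference itself (edgeR interaction, adjusted p under 0.01). The difference of log2 fold changes, TIGK minus HaCaT, was 0.60 for STARD4, -0.48 for SOAT1, -0.40 for MSMO1 and -0.39 for SCAP. In treated cells every STARD4 library of TIGK was above, and every one of HaCaT below, the untreated libraries of its line, and SOAT1 and SCAP showed the reverse pattern. MSMO1 was higher in all treated libraries of both lines, by more in HaCaT.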

How the results depend on the processing

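With the stricter rule of an adjusted p under 0.01 and an absolute log2 fold change over 1, the counts of genes up and down were 0 and 1 in the TIGK response, 0 and 1 in the HaCaT response, 11 and 2 for HaCaT over TIGK untreated, 12 and 2 after H2O2, and none for the difference of responses, all by edgeR. At a limit of 0.05 the falls in TIGK numbered 10 and the differences below 0 numbered 6. Same-numbered samples did not deviate together over the genes tested (18 pairs, r from -0.121 to 0.0257), and no pairing was used in the main fit. Values near 0 cannot exclude a shared culture with a small effect. With a replicate block the differences below 0 numbered 1. Without 1 library at a time the falls in TIGK ranged from 2 to 7, the falls in HaCaT from 2 to 5 and the differences below 0 from 0 to 6. DESeq2, DESeq2 size factors, library totals, no filter on low counts and fits of 2 groups alone kept the counts over all 31 genes within 1.5 times. Counts by role moved more. In the sterol branch the rises in TIGK went from 1 to 2 with DESeq2, library totals or 2 groups alone and to 3 without the filter, and the falls from 0 to 1 with DESeq2 or without the filter. In HaCaT the rises of the regulators went from 2 to 3 with DESeq2 and to 1 without the filter or with 2 groups alone, and the falls of the transport genes from 2 to 1 with library totals. With a replicate block the calls of MVD, FASN and SCD in TIGK (adjusted p 0.0219, 0.0121 and 0.011), DHCR7 and STARD4 in HaCaT (0.0149 and 0.0139) and the differences of MSMO1 and SCAP (0.0134 and 0.0117) were not made (edgeR).

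Signs turned only for values near 0 without a call. The MYLIP response in HaCaT was -0.00564 in the fit of 2 groups alone. Without a filter on low counts the difference of responses was 0.012 for IDI1, 0.051 for INSIG2, 0.019 for SC5D, 0.0030 for SREBF1 and 0.053 for SREBF2. It was 0.014 for INSIG2 and 0.017 for SREBF2 with DESeq2, and 0.015 for INSIG2 and 0.017 for SREBF2 with DESeq2 size factors. Without 1 library at a time, SQLE after H2O2 ranged from -0.0682 to 0.035, and in HaCaT FASN from -0.17 to 0.057, MYLIP from -0.11 to 0.14 and SREBF1 from -0.16 to 0.0047. In TIGK ABCG1 ranged from -0.030 to 0.13 and TM7SF2 from -0.038 to 0.098. The difference of responses ranged from -0.12 to 0.018 for HMGCS1, -0.11 to 0.061 for HSD17B7, -0.081 to 0.029 for IDI1, -0.062 to 0.10 for INSIG2, -0.17 to 0.0052 for MVK, -0.0093 to 0.15 for NPC1, -0.077 to 0.054 for SC5D, -0.14 to 0.016 for SCD, -0.12 to 0.076 for SREBF1 and -0.077 to 0.12 for SREBF2. The causes were not tested.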
